A study of Mus musculus with 18 samples.

Results

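Cholesterol and fatty acid synthesis genes were taken as a group of 31 genes, chosen by symbol among the 38924 genes of each deposited table. Their members are 7 genes of the mevalonate steps, 10 of the squalene and sterol steps, 4 regulators of the pathway, 4 genes that supply or build saturated fatty acids, and 6 desaturases and elongases. No measured value entered the rule, but the genes were chosen with earlier results of these data known. Every one of the 31 passed the low-count filter in both model fits.

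Cells make cholesterol from acetyl-CoA through mevalonate, isoprenoid diphosphates, squalene and lanosterol, and they make fatty acids from the same precursor with acetyl-CoA carboxylase and fatty acid synthase. The transcription factors Srebf1 and Srebf2 switch these genes on when sterols run low, and Insig1 holds them back in the endoplasmic reticulum. In the nervous system the lipids go into membranes, and oligodendrocytes, which wrap axons in myelin, are known for a high demand for cholesterol and long fatty acids.

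Ribosome-associated mRNA was sequenced from spinal cords of 18 mice aged 8 weeks, by immunoprecipitation of haemagglutinin-tagged Rpl22 (RiboTag), a ribosomal protein whose tag is switched on by Cre recombinase. Cre came from Chat, the gene of choline acetyltransferase, so that ribosomes of cholinergic cells, motor neurons among them, carried the tag. The Gars gene encodes glycyl-tRNA synthetase, and the P278KY allele is a dominant one that causes a motor neuropathy in mice. Cre P278KY mice (n = 3) were Rpl+/-;Chat+/-;P278KY+/-, Cre WT mice (n = 4) were Rpl+/-;Chat+/-;P278KY+/+, NoCre P278KY mice (n = 6) were Rpl+/-;Chat+/+;P278KY+/- and NoCre WT mice (n = 5) were Rpl+/-;Chat+/+;P278KY+/+. All 18 therefore carried 1 tagged Rpl22 allele, on the mixed background B6;CASTxB6.129, and the NoCre mice are negative controls in which RNA that sticks without a tag is brought down. The tag follows the Chat promoter, so it marks every Chat-expressing cell and not motor neurons alone.

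Expected counts summed to between 15461440 and 18944769 in Cre P278KY libraries and to between 14659488 and 24028649 in Cre WT. The sums were lower in the controls, from 9876808 to 14450144 in NoCre P278KY and, in NoCre WT, from 8177758 to 11480402. Chat averaged 105 ± 12.6 CPM (counts scaled by library size after TMM) in Cre P278KY and 122 ± 44.0 CPM in Cre WT, against 2.88 ± 0.616 CPM in NoCre P278KY and 7.90 ± 2.92 CPM in NoCre WT (SD, n = 3, 4, 6 and 5). Gars ran from 250 to 296 CPM in Cre P278KY and from 105 to 168 CPM in Cre WT, and its counts do not tell the alleles apart. Sequencing pools were inferred from the library descriptions. Pool 1 held all 3 Cre P278KY libraries and replicates 1 and 2 of Cre WT, and pool 2 held replicates 3 and 4 of Cre WT. By sex-linked transcripts the pool 1 Cre WT mice were 2 males and those of pool 2 were 2 females, so pool and sex cannot be told apart among them. The same holds for the controls. NoCre P278KY had 3 males in pool 1 and 3 females in pool 2, and NoCre WT had 2 males in pool 1 and 3 females in pool 2. NoCre WT replicates 4 and 5 and NoCre P278KY replicate 6 had the lowest correlations with the rest of their groups.

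The RefSeq promoter windows of GRCm38.p6, each 250 bases before and 50 bases after a gene's start, were available for 24 of the 31 genes. Sequences are shown for a gene that was high in every library (Hmgcs1), for 3 that were raised in Cre libraries (Mvk, Nsdhl and Acat2) and for 1 that was low there (Elovl6), so that genes of both branches of the pathway can be read side by side. Capitals mark TCACNCCAC, a core of the sterol regulatory element that Srebf proteins bind, or CCAAT, the box bound by the factor NF-Y that often works beside them. In a window read along the gene, a match of that box to the opposite strand appears in capitals as its reverse complement. The window of Hmgcs1 (ENSMUSG00000093930) lies at chr13:119690101-119690400 on the plus strand, that of Mvk (ENSMUSG00000041939) at chr5:114444019-114444318 on the plus strand and that of Nsdhl (ENSMUSG00000031349) at chrX:72918271-72918570 on the plus strand. The window of Acat2 (ENSMUSG00000023832) lies at chr17:12960676-12960975 on the minus strand and that of Elovl6 (ENSMUSG00000041220) at chr3:129532136-129532435 on the plus strand.
Hmgcs1: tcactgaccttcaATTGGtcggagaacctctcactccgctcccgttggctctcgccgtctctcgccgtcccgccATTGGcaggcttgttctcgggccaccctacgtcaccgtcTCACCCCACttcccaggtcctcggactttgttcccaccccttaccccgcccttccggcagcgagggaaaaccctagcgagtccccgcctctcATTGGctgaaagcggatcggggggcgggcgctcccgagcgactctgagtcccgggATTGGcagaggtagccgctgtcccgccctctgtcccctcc
Mvk: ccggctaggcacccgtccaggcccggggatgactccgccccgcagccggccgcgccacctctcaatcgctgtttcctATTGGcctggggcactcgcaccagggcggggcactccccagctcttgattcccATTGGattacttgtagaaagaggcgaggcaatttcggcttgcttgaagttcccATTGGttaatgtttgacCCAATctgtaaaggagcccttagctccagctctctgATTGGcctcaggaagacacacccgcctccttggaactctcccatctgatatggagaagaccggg
Nsdhl: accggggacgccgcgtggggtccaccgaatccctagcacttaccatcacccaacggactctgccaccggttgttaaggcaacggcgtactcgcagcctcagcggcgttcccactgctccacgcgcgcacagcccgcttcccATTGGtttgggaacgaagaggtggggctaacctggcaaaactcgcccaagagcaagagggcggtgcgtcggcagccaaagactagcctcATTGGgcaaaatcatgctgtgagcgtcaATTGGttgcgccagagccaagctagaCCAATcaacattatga
Acat2: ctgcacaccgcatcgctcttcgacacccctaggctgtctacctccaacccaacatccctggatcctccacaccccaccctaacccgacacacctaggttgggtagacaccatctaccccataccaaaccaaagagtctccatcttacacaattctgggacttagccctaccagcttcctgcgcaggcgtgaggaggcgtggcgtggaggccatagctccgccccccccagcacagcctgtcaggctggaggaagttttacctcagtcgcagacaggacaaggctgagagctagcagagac
Elovl6: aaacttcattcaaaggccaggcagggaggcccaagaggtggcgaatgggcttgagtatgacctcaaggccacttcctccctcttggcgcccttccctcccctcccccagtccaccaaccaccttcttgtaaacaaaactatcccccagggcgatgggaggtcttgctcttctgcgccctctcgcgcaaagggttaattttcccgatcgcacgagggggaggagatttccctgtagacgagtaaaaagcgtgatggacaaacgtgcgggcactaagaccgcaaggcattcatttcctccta

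CCAAT was found on either strand for 20 of the 24 genes (83.3%), against 41.1% of 27025 genes in the same table. A gene with several windows was counted if any of them held the motif. Among mevalonate and sterol genes 13 of 14 had CCAAT (92.9%), and among desaturases and elongases 1 of 3. Mvk had 5 matches, Hmgcs1 and Nsdhl had 4 each, and Acat2 and Elovl6 had none. TCACNCCAC was found for 1 of 24 genes, Hmgcs1, against 1.44% of the genes in the table. In the window of Hmgcs1 it began 137 bases before the start. The motifs did not overlap each other in the windows shown. These are matches of letters in 300 bases, and no factor was measured on them.

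Levels were compared between genes in TPM, which accounts for transcript length. Scd2, a stearoyl-CoA desaturase, had the highest mean of the 31 genes in each group, at 148 ± 35.6 TPM in Cre P278KY, 183 ± 138 TPM in Cre WT, 298 ± 94.9 TPM in NoCre P278KY and 230 ± 97.7 TPM in NoCre WT. Hmgcs1, the synthase that makes HMG-CoA, came next in Cre libraries, with 117 ± 16.2 TPM in Cre P278KY and 111 ± 41.5 TPM in Cre WT. They were followed by squalene synthase (Fdft1), with 98.0 ± 22.8 TPM in Cre P278KY and 106 ± 20.1 TPM in Cre WT, and by the elongase Elovl5, with 99.9 ± 26.3 TPM in Cre P278KY and 94.0 ± 24.7 TPM in Cre WT (SD, n = 3 and 4). Hmgcs1, Fdft1 and Elovl5 lie within each other's spread, and Elovl5 ranked above Fdft1 in Cre P278KY and below it in Cre WT. The lowest of the 31 in Cre libraries was lanosterol synthase (Lss), at 6.81 ± 3.18 TPM in Cre P278KY and 5.86 ± 2.98 TPM in Cre WT. In NoCre libraries the lowest was mevalonate kinase (Mvk), at 5.52 ± 2.19 TPM in NoCre P278KY and 4.81 ± 2.39 TPM in NoCre WT.

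The comparison of Cre with NoCre libraries asks which of these mRNAs are on the ribosomes of cholinergic cells above the untagged background. In P278KY mice 22 of the 31 genes passed the test, 15 higher and 7 lower in Cre, where 28.2% of all 17133 genes tested were called higher and 31.2% lower. In WT mice 25 passed, 18 higher and 7 lower, where 28.5% of all genes tested were called higher and 31.2% lower. Under TMM scaling most calls of mevalonate and sterol genes were higher and most calls of desaturases and elongases lower. Fewer of the 31 passed under the other scalings described below. Of the 17 mevalonate and sterol genes, 11 were higher and 1 lower in P278KY mice, and 13 were higher and 1 lower in WT mice. Of the 6 desaturases and elongases, 1 was higher and 5 were lower in each genotype. The median log2 fold change of the 31 was 0.52 in P278KY mice, beside -0.13 for all genes tested, and 0.82 in WT mice, beside -0.12. In these bulk samples a different share of cells and a different amount of RNA per cell cannot be told apart.

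**Figure D1:**
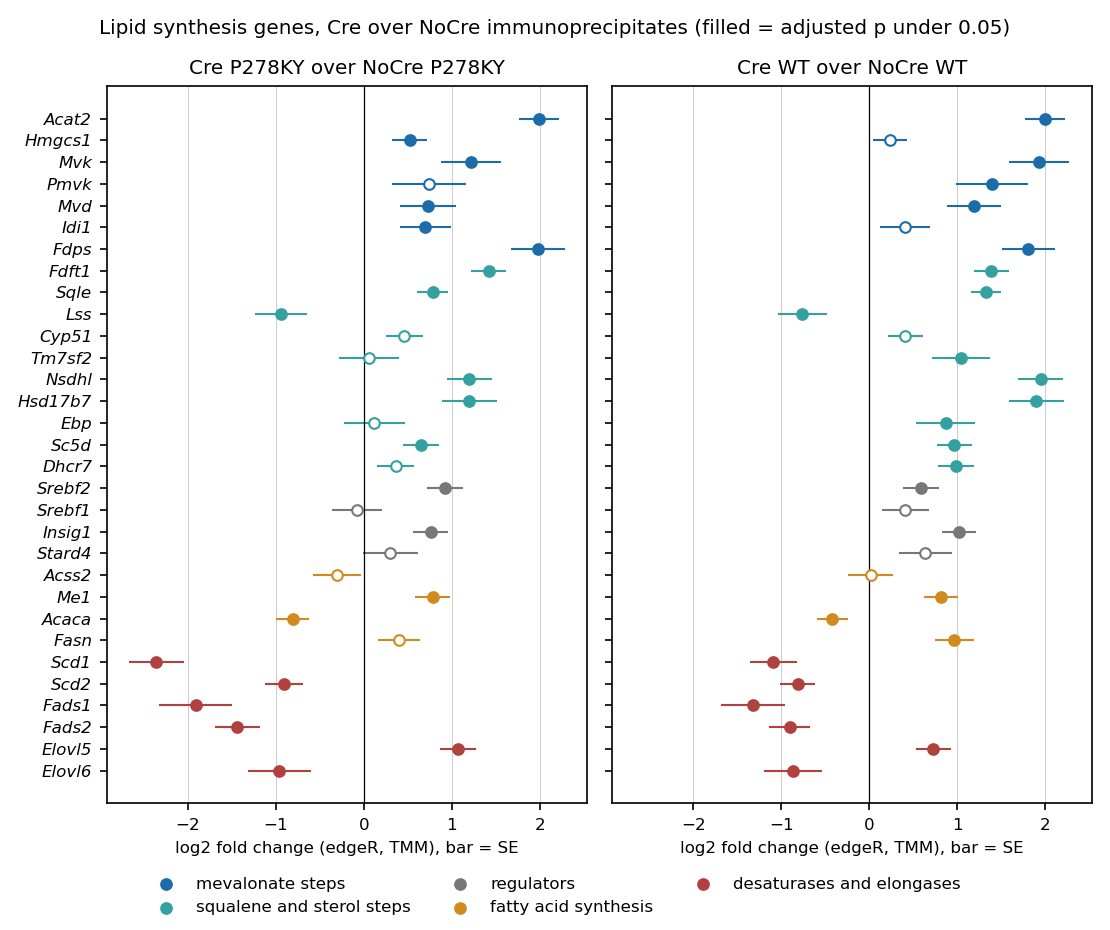
Log2 fold change (edgeR, TMM scaling) of each of the 31 genes between Cre and NoCre libraries, in P278KY mice on the left (3 against 6 libraries) and in WT mice on the right (4 against 5). Points are estimates, bars the SE and filled points those with an adjusted p under 0.05; blue and teal points lie mostly right of 0, and the red desaturases and elongases lie left of 0 apart from Elovl5, at 1.07 and 0.73.

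Among the mevalonate genes, Acat2, the cytosolic thiolase that starts the pathway by joining acetyl-CoA units, had 67.3, 74.3 and 69.4 CPM in Cre P278KY, against a lowest, median and highest value of 14.8, 18.1 and 19.7 CPM in NoCre P278KY. In WT mice Acat2 had 78.6, 85.9, 82.4 and 53.9 CPM in Cre, against 22.8, 18.7, 27.1, 13.9 and 11.0 CPM in NoCre. Every Cre library lay above every NoCre library of its genotype. The log2 fold change was 1.99 (SE 0.224, adjusted p = 2.72e-07) in P278KY mice and 2.00 (SE 0.225, adjusted p = 2.27e-07) in WT mice. Fdps, which makes the farnesyl diphosphate from which sterols and isoprenoid anchors branch, had 53.4, 43.2 and 62.8 CPM in Cre P278KY, against 3.84, 14.2 and 18.5 CPM (lowest, median, highest) in NoCre P278KY. In WT mice Fdps had 67.4, 88.6, 45.3 and 42.0 CPM in Cre, against 13.5, 14, 17.1, 20.1 and 22.5 CPM in NoCre. Again the Cre and NoCre libraries did not overlap in either genotype. The log2 fold change of Fdps was 1.98 (SE 0.305, adjusted p = 1.44e-05) in P278KY mice and 1.81 (SE 0.305, adjusted p = 3.62e-05) in WT mice.

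Mevalonate kinase (Mvk) had 13.4, 12 and 13.9 CPM in Cre P278KY, against 3.79, 5.05 and 8.97 CPM (lowest, median, highest) in NoCre P278KY. In WT mice it had 27.9, 41.6, 19.4 and 15.9 CPM in Cre, against 5.68, 3.75, 5.77, 6.57 and 12.8 CPM in NoCre. The groups did not overlap, and the Cre WT libraries were spread widely, with replicate 2 the highest. The log2 fold change was 1.22 (SE 0.342, adjusted p = 0.00449) in P278KY mice and 1.93 (SE 0.340, adjusted p = 5.77e-05) in WT mice. The decarboxylase Mvd was higher in Cre by 0.73 (adjusted p = 0.0495) in P278KY mice and by 1.19 (adjusted p = 0.00228) in WT mice on the log2 scale. Phosphomevalonate kinase (Pmvk) passed in WT mice, with 1.40 (adjusted p = 0.00588), and had 0.74 (adjusted p = 0.134) in P278KY mice. Hmgcs1 and the isopentenyl diphosphate isomerase Idi1 passed in P278KY mice. Hmgcs1 had 0.52 (adjusted p = 0.0283) in P278KY mice and 0.24 (adjusted p = 0.275) in WT mice, and Idi1 had 0.70 (adjusted p = 0.0425) in P278KY mice and 0.41 (adjusted p = 0.209) in WT mice.

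Among the squalene and sterol genes, Nsdhl, a dehydrogenase of the step that strips methyl groups from the sterol ring, had 30.7, 38.2 and 33.0 CPM in Cre P278KY, against 10.6, 15.2 and 18.9 CPM (lowest, median, highest) in NoCre P278KY. In WT mice it had 43.1, 59.8, 57.3 and 43.2 CPM in Cre, against 18.3, 6.38, 17.2, 9.96 and 13.7 CPM in NoCre. The Cre libraries lay clear of the NoCre libraries in both genotypes, and the Cre WT libraries lay above the Cre P278KY ones. Its log2 fold change was 1.2 (SE 0.258, adjusted p = 0.000506) in P278KY mice and 1.95 (SE 0.258, adjusted p = 1.8e-06) in WT mice. Hsd17b7, the ketoreductase that acts with Nsdhl, had 52.4, 57.7 and 48.0 CPM in Cre P278KY, against 17.7, 23.2 and 27.1 CPM (lowest, median, highest) in NoCre P278KY. In WT mice Hsd17b7 had 100, 64.6, 106 and 90.8 CPM in Cre, against 31.5, 21.5, 43.0, 18.1 and 6.70 CPM in NoCre. It was higher in every Cre library than in any NoCre library, by 1.2 (adjusted p = 0.00274) in P278KY mice and by 1.90 (adjusted p = 2.98e-05) in WT mice on the log2 scale.

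Fdft1, which commits the pathway to sterols, was higher in Cre by 1.42 (adjusted p = 4.61e-06) in P278KY mice and by 1.39 (adjusted p = 4.22e-06) in WT mice. Squalene epoxidase (Sqle) was higher by 0.78 (adjusted p = 0.000856) in P278KY mice and by 1.33 (adjusted p = 1.42e-06) in WT mice. The sterol desaturase Sc5d, which makes a late ring double bond, was higher by 0.65 (adjusted p = 0.0104) in P278KY mice and by 0.97 (adjusted p = 3e-04) in WT mice. The reductase Tm7sf2, the isomerase Ebp and the reductase Dhcr7, which act late in the pathway, passed in WT mice and not in P278KY mice. In P278KY mice Tm7sf2 had 0.06 (adjusted p = 0.881), Ebp 0.12 (adjusted p = 0.777) and Dhcr7 0.36 (adjusted p = 0.151), and in WT mice Tm7sf2 had 1.04 (adjusted p = 0.00966), Ebp 0.87 (adjusted p = 0.0299) and Dhcr7 0.99 (adjusted p = 0.000319). The lanosterol demethylase Cyp51 passed in neither genotype, with 0.46 (adjusted p = 0.0597) in P278KY mice and 0.41 (adjusted p = 0.0766) in WT mice. Lss, which closes the sterol ring system, was the 1 sterol gene that was lower in Cre: it had 16.2, 22.6 and 20.6 CPM in Cre P278KY, against 30.5, 34.6 and 56.5 CPM (lowest, median, highest) in NoCre P278KY, and 17.9, 13.7, 22.2 and 20.4 CPM in Cre WT, against 49.1, 38.5, 32.8, 15.5 and 20.7 CPM in NoCre WT. In P278KY mice the Lss values did not overlap, and in WT mice they did, through NoCre WT replicates 4 and 5. The difference was -0.94 (adjusted p = 0.00995) in P278KY mice and -0.76 (adjusted p = 0.0218) in WT mice on the log2 scale.

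Of the regulators, Srebf2, the factor that favours sterol genes, had 117, 94.8 and 96.5 CPM in Cre P278KY, against 39.6, 56.7 and 65.2 CPM (lowest, median, highest) in NoCre P278KY. In WT mice it had 85.1, 78.0, 77.5 and 86.8 CPM in Cre, against 44.9, 39.6, 44.6, 67.9 and 76.0 CPM in NoCre. No Cre library fell within the NoCre range, although NoCre WT replicates 4 and 5 came close. It was higher in Cre by 0.92 (adjusted p = 0.000699) in P278KY mice and by 0.59 (adjusted p = 0.0151) in WT mice. Insig1 was higher by 0.76 (adjusted p = 0.00261) in P278KY mice and by 1.02 (adjusted p = 0.000114) in WT mice. Srebf1, which favours fatty acid genes, had -0.08 (adjusted p = 0.813) in P278KY mice and 0.41 (adjusted p = 0.184) in WT mice. The cholesterol carrier Stard4 had 0.30 (adjusted p = 0.408) in P278KY mice and 0.64 (adjusted p = 0.0690) in WT mice.

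Of the genes that supply and build saturated fatty acids, malic enzyme (Me1), a source of NADPH, was higher in Cre by 0.78 (adjusted p = 0.00189) in P278KY mice and by 0.82 (adjusted p = 0.000901) in WT mice. Acetyl-CoA carboxylase (Acaca) was lower, at -0.81 (adjusted p = 0.00118) in P278KY mice and -0.42 (adjusted p = 0.0459) in WT mice. Fatty acid synthase (Fasn) had 161, 149 and 159 CPM in Cre P278KY, against 102, 118 and 142 CPM (lowest, median, highest) in NoCre P278KY, and its 0.40 did not pass (adjusted p = 0.141). In WT mice Fasn had 275, 309, 224 and 208 CPM in Cre, against 114, 69.8, 102, 163 and 201 CPM in NoCre, and it was higher in Cre by 0.97 (adjusted p = 0.000932). Cre and NoCre values of Fasn did not overlap in either genotype. The acetyl-CoA synthetase Acss2 had -0.30 (adjusted p = 0.357) in P278KY mice and 0.02 (adjusted p = 0.955) in WT mice.

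Of the 6 desaturases and elongases, 5 were lower in Cre, unlike most of the sterol genes. Scd1, a stearoyl-CoA desaturase, had 48.5, 55.8 and 65.0 CPM in Cre P278KY, against 224, 259 and 462 CPM (lowest, median, highest) in NoCre P278KY. In WT mice Scd1 had 71.1, 64.8, 174 and 154 CPM in Cre, against 262, 296, 264, 212 and 198 CPM in NoCre. Every Cre library was below every NoCre library, and Cre WT replicates 3 and 4 were the nearest to them. The log2 fold change was -2.36 (SE 0.313, adjusted p = 2.31e-06) in P278KY mice and -1.09 (SE 0.269, adjusted p = 0.00158) in WT mice. Fads1, a desaturase of polyunsaturated fatty acids, had 33.3, 36.5 and 35.5 CPM in Cre P278KY, against 65.0, 134 and 169 CPM (lowest, median, highest) in NoCre P278KY. In WT mice Fads1 had 20.4, 26.5, 86.5 and 67.6 CPM in Cre, against 156, 132, 155, 58.6 and 125 CPM in NoCre. The groups were apart in P278KY mice and met in WT mice, where NoCre WT replicate 4 lay below both Cre libraries of pool 2 and above those of pool 1. Fads1 was lower in Cre, at -1.91 (adjusted p = 0.000675) in P278KY mice and at -1.32 (adjusted p = 0.00470) in WT mice.

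Fads2, which opens the polyunsaturated pathway, was lower in Cre, at -1.44 (adjusted p = 7.1e-05) in P278KY mice and at -0.90 (adjusted p = 0.00211) in WT mice. Scd2 was lower as well, at -0.91 (adjusted p = 0.00118) in P278KY mice and at -0.81 (adjusted p = 0.00153) in WT mice. Elovl6, which lengthens saturated fatty acids, had -0.96 (adjusted p = 0.0247) in P278KY mice and -0.87 (adjusted p = 0.0277) in WT mice. Elovl5, the elongase of polyunsaturated fatty acids, went the other way. It had 163, 150 and 101 CPM in Cre P278KY, against 52.6, 64.3 and 82.6 CPM (lowest, median, highest) in NoCre P278KY, and 102, 90.0, 126 and 99.8 CPM in Cre WT, against 53.2, 82.6, 73.1, 43.8 and 62.7 CPM in NoCre WT. Its Cre and NoCre values did not overlap, and it was higher by 1.07 (adjusted p = 0.000168) in P278KY mice and by 0.73 (adjusted p = 0.00381) in WT mice.

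**Figure D2:**
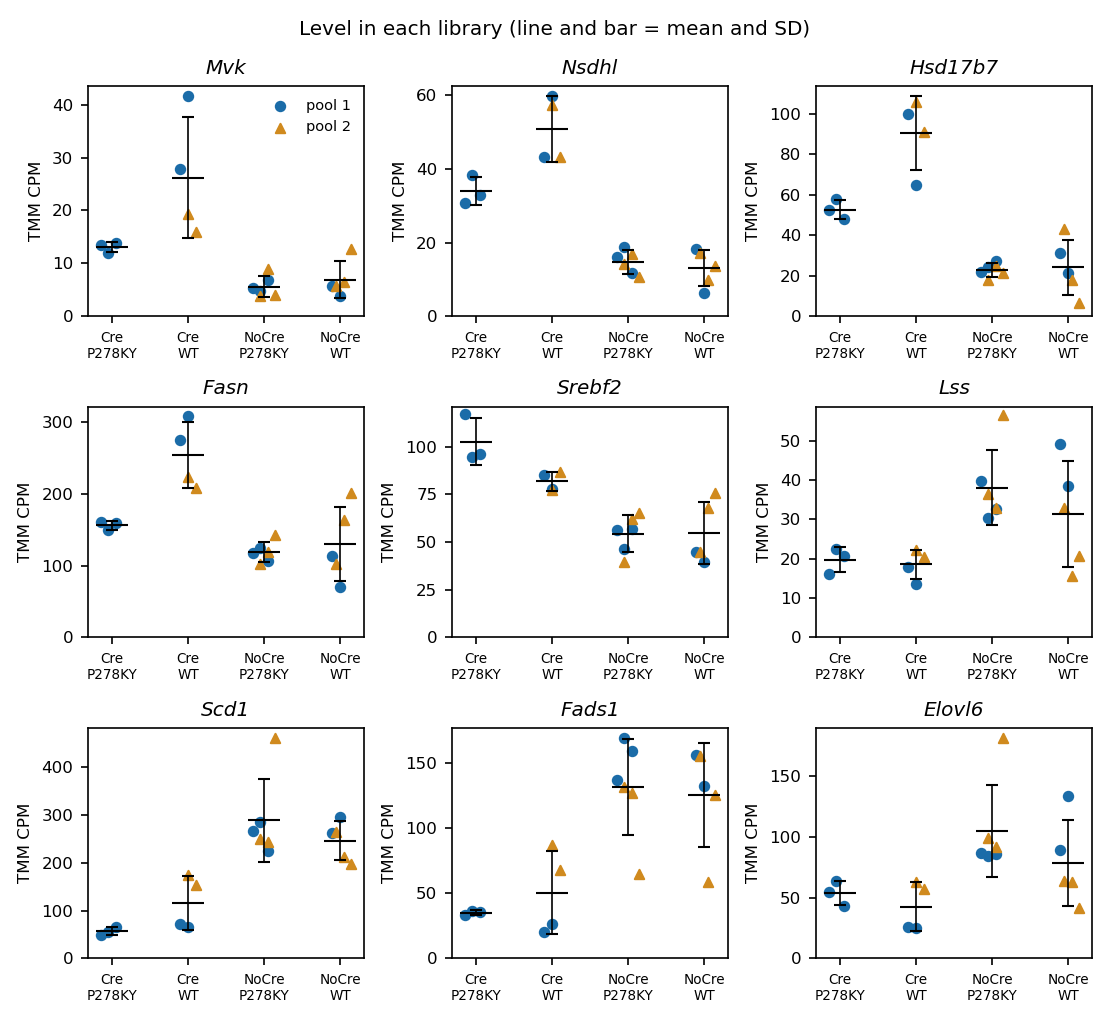
TMM-scaled CPM of 9 of the genes in each library, with 1 panel per gene, the 4 groups from left to right, and the mean and SD of each group as a line and bar. Mvk, Nsdhl and Hsd17b7 are higher in Cre groups, while Scd1, Fads1 and Elovl6 are lower, and within Cre WT the triangles of pool 2 stand above the circles of pool 1 for these last 3 genes.

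Markers of several glial and other cell types were lower in Cre, as 5 of the 6 desaturases and elongases were. Over all genes tested, 31.2% were called lower in each genotype. The summed level of 18 oligodendrocyte genes, none of them a member, ran from 789 to 1910 CPM in Cre P278KY and from 840 to 4710 CPM in Cre WT, against 10400 to 14000 CPM in NoCre P278KY and between 9260 and 13800 CPM in NoCre WT, and no gene of the list was at 0 in any library. In the comparison of Cre with NoCre, 18 of 18 were lower in P278KY mice and 16 of 18 in WT mice. The summed level of 14 astrocyte genes ran from 973 to 1540 CPM in Cre P278KY and from 1180 to 2340 CPM in Cre WT, against 3740 to 5220 CPM in NoCre P278KY and between 3310 and 4430 CPM in NoCre WT. Of these 14 genes, 12 were lower and 1 higher in P278KY mice, and 11 were lower and 1 higher in WT mice. Microglial genes were lower in 14 of 14 cases in both genotypes, and their summed level ran from 34.6 to 53.9 CPM in Cre P278KY and from 30.3 to 49.4 CPM in Cre WT, against 200 to 290 CPM in NoCre P278KY and between 207 and 280 CPM in NoCre WT. Of 10 Schwann cell genes 9 were lower in P278KY mice and 7 in WT mice, with sums of 209 to 269 CPM in Cre P278KY and 377 to 545 CPM in Cre WT, against 342 to 789 CPM in NoCre P278KY and between 552 and 1230 CPM in NoCre WT. Of 6 adipocyte genes tested 6 were lower in P278KY mice and 3 in WT mice. The median log2 fold changes in P278KY and WT mice were -3.66 and -3.28 for microglial genes, -3.16 and -1.70 for oligodendrocyte genes, -3.09 and -1.56 for astrocyte genes, -3.03 and -1.84 for Schwann cell genes and -3.45 and -2.14 for adipocyte genes. The summed level of 17 cholinergic genes ran from 16100 to 20000 CPM in Cre P278KY and from 30000 to 54100 CPM in Cre WT, against 2110 to 3430 CPM in NoCre P278KY and between 3660 and 7700 CPM in NoCre WT, and all 17 were higher in Cre in both genotypes. Most of the cholinergic sum in Cre libraries came from the neurofilament genes Nefl, Nefm and Nefh. The marker lists were chosen with earlier results of these data known, so their counts are not an independent test of the enrichment. The part of these cell types in the levels of the 31 genes was not tested.

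The balance between the branches can be read within a library from TPM, where no scaling between libraries enters. Mevalonate and sterol genes made up 55.5% to 56.6% of the summed TPM of the 31 genes in Cre P278KY and 51.8% to 65.4% in Cre WT, against 25.9% to 35.7% in NoCre P278KY and between 33.1% and 39.5% in NoCre WT. Desaturases and elongases made up 26.9% to 28% in Cre P278KY and 18.1% to 32.2% in Cre WT, against 48.3% to 56.5% in NoCre P278KY and between 44.3% and 52.2% in NoCre WT. Cre and NoCre libraries did not overlap in either share. Among the Cre libraries, the pool 1 libraries of WT mice stood at 63.8% and 65.4% for the mevalonate and sterol genes and those of pool 2 at 52.4% and 51.8%, on either side of the P278KY libraries. Scd1 made up 9.59% to 11.5% of the sum of Scd1 and Scd2 in Cre P278KY and 14.7% to 20.0% in Cre WT, against 20.2% to 31.4% in NoCre P278KY and between 18.8% and 23.2% in NoCre WT. The 3 Cre P278KY libraries were below all 15 others in that share, and Scd1 and Scd2 are close paralogs whose counts were fractional in every library, so the authors' counting may have split reads between them.

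**Figure D3:**
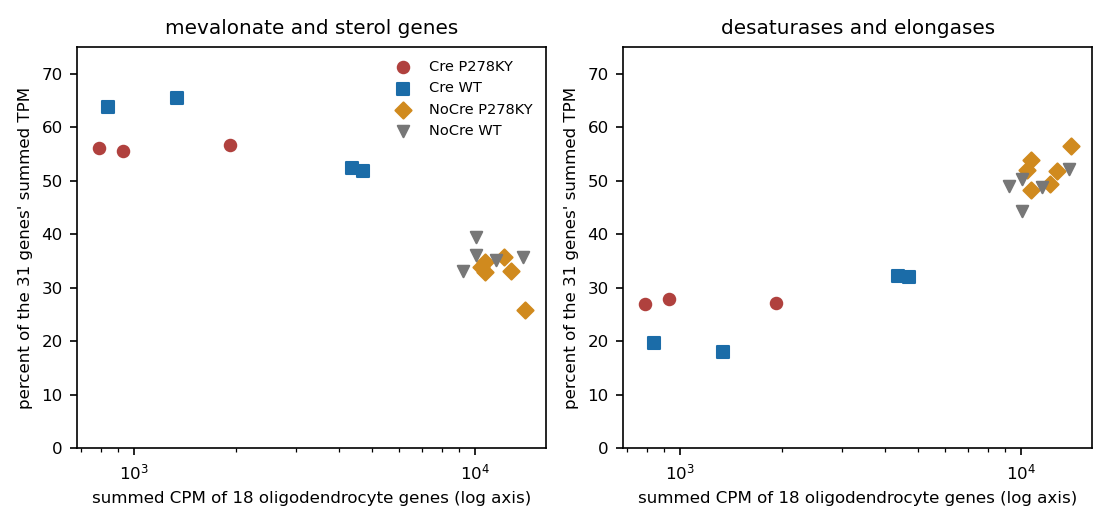
Percent of the summed TPM of the 31 genes held by the 17 mevalonate and sterol genes (left) and by the 6 desaturases and elongases (right), plotted for each library against the summed CPM of 18 oligodendrocyte genes on a log axis. Each symbol is 1 library; Cre P278KY libraries stand at 55.5% to 56.6% on the left and NoCre libraries at 25.9% to 39.5%, and the 2 Cre WT libraries with 4350 and 4710 oligodendrocyte CPM hold a larger desaturase and elongase share than the other 2.

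The same genes made up most of the calls in both genotypes, whose Cre and NoCre libraries are separate mice fitted in 1 model. Of the calls, 20 were shared in the same direction, 13 higher and 7 lower, which is 90.9% of those in P278KY mice and 80.0% of those in WT mice. Over all genes tested, 79.6% of the calls in P278KY mice and 79.2% of those in WT mice were shared in the same way. Pmvk, Tm7sf2, Ebp, Dhcr7 and Fasn passed in WT mice alone, and Hmgcs1 and Idi1 in P278KY mice alone. Whether the genotypes differ was tested with the interaction of genotype and Cre, in which 0 of the 31 genes passed and 3 had an unadjusted p under 0.05, where 0.654% of all genes passed and 11.1% had such a p. The 3 were Scd1 at -1.27 (adjusted p = 0.157), Dhcr7 at -0.64 (adjusted p = 0.435) and Sqle at -0.56 (adjusted p = 0.413) on the log2 scale. DESeq2 also called 0 of the 31. So none of the 31 genes was shown to differ between genotypes in its enrichment.

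Scaling bore on the enrichment, since mitochondrial ribosomal RNA took 2.16% to 4.88% of the counts in Cre P278KY and 1.36% to 3.36% in Cre WT, against 24.2% to 38.6% in NoCre P278KY and between 31.8% and 53.8% in NoCre WT. With library sizes that leave those genes out, the median of all genes moved to -0.59 in P278KY mice and -0.54 in WT mice, and the calls among the 31 to 3 higher and 7 lower in P278KY mice and 7 higher and 7 lower in WT mice, where 49.8% of all genes passed in P278KY mice and 50.2% in WT mice. With library size as the only scaling, 11 of the 31 passed in P278KY mice and 19 in WT mice, where 45.9% and 47.6% of all genes did. Relative to the median of all genes, the median of the 31 was 0.65 in P278KY mice and 0.94 in WT mice under TMM; a change of scaling shifts both medians alike, so this difference does not test the scaling. With each library left out in turn, 16 of the 22 calls in P278KY mice and 20 of the 25 in WT mice were kept every time. In P278KY mice Hmgcs1, Mvd, Idi1, Lss, Sc5d and Elovl6 lost theirs at least once, and all 6 did so without Cre P278KY replicate 1, with adjusted p-values between 0.0533 (Sc5d) and 0.183 (Mvd) and 7 of the 17 mevalonate and sterol genes higher. In WT mice Lss, Ebp, Srebf2, Acaca and Elovl6 lost theirs at least once. Within pool 1, with 3 libraries in each P278KY group, 1 of the members' calls was lost and 3 were gained. With 2 libraries in each WT group of that pool, 4 calls were lost and 0 gained. Over all genes 9605 were called there in P278KY mice and 9120 in WT mice, beside 10180 and 10229 as reported. Within pool 2, with 2 Cre WT against 3 NoCre WT libraries, 9 of the 31 passed, where 28.2% of all genes did. All 9 were higher, and the 5 lower desaturases and elongases had log2 fold changes of -0.57 (Scd1), -0.47 (Scd2), -0.66 (Fads1), -0.65 (Fads2) and -0.01 (Elovl6), none past the threshold.

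Wider lists of lipid genes, named below by the smallest adjusted p in each list, gave both directions. Of all genes tested, 28.2% were called higher and 31.2% lower in P278KY mice, and 28.5% and 31.2% in WT mice. Of 25 other synthesis genes tested, 12 were higher and 7 lower in P278KY mice, and 13 higher and 4 lower in WT mice. ATP citrate lyase (Acly), which makes cytosolic acetyl-CoA from citrate, averaged 1110 ± 131 CPM in Cre P278KY, against 84.7 ± 8.81 CPM in NoCre P278KY, and 1220 ± 381 CPM in Cre WT, against 121 ± 29.9 CPM in NoCre WT (SD, n = 3, 6, 4 and 5). Its log2 fold change was 3.71 (adjusted p = 2.12e-11) in P278KY mice and 3.33 (adjusted p = 1.49e-10) in WT mice, above that of each of the 31 genes. Tecr, a reductase of fatty acid elongation, was higher by 2.47 (adjusted p = 9.91e-08) in P278KY mice and by 2.51 (adjusted p = 7.62e-08) in WT mice. Elovl4, the elongase of very long chains, was higher by 1.95 (adjusted p = 6.78e-08) in P278KY mice and by 2.12 (adjusted p = 2.07e-08) in WT mice. Of 20 genes of sterol sensing and uptake, 8 were higher and 2 lower in P278KY mice, and 8 higher and 4 lower in WT mice, among them the apolipoprotein E receptor Lrp8 at -1.51 (adjusted p = 8.03e-06) in P278KY mice and -1.23 (adjusted p = 2.57e-05) in WT mice. Of 30 glycerolipid genes, 9 were higher and 7 lower in P278KY mice and 9 higher and 4 lower in WT mice. Of 28 fatty acid oxidation genes, 11 were higher and 5 lower in P278KY mice and 12 higher and 4 lower in WT mice, and of 15 genes of sterol export and turnover 1 was higher and 5 lower in P278KY mice and 3 higher and 3 lower in WT mice.

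The comparison of Cre P278KY with Cre WT asks how the mutation changes these mRNAs on cholinergic ribosomes. None of the 31 genes passed the test (0 of 31), where 2.32% of the 14717 genes tested did, and 10 had an unadjusted p under 0.05, where 16.2% of all genes did. The median log2 fold change was -0.32 for the 31 genes and -0.51 for the 17 mevalonate and sterol genes, beside -0.01 for all genes. The estimate was below 0 for 24 of the 31 genes. Values of the 2 genotypes did not overlap for 10 genes that were lower and 1 that was higher in Cre P278KY, where 8% and 8.67% of all genes tested did so. The lower ones were Mvk, Pmvk, Sqle, Nsdhl, Hsd17b7, Sc5d, Dhcr7, Insig1, Acaca and Fasn, and the higher one was Srebf2. DESeq2 called 5 of the 31 (Mvk, Pmvk, Hsd17b7, Dhcr7 and Fasn, all lower) and 6.61% of all genes.

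In this fit of 7 libraries Pmvk had 28.9, 23.9 and 27.0 CPM in Cre P278KY, against 57.0, 70.7, 44.4 and 39.9 CPM in Cre WT. Every mutant library lay below every WT library. The log2 fold change was -0.99 (SE 0.230), with an adjusted p of 0.0576 from edgeR's quasi-likelihood test. Dhcr7, which reduces the last double bond on the way to cholesterol, had 24.6, 28.9 and 28.6 CPM in Cre P278KY, against 41.8, 43.3, 39.4 and 48.2 CPM in Cre WT. The values were tight in both groups and apart, at -0.66 (SE 0.173, adjusted p = 0.0866). Fasn had 179, 163 and 169 CPM in Cre P278KY, against 294, 310, 241 and 238 CPM in Cre WT. Its log2 fold change was -0.67 (SE 0.176, adjusted p = 0.0873). The other lower genes without overlap had -0.95 (Mvk, SE 0.293, adjusted p = 0.142), -0.76 (Hsd17b7, SE 0.223, adjusted p = 0.121), -0.55 (Nsdhl, SE 0.187, adjusted p = 0.182) and -0.52 (Sqle, SE 0.186, adjusted p = 0.207), and, with smaller differences, -0.34 (Sc5d, adjusted p = 0.439), -0.32 (Acaca, adjusted p = 0.409) and -0.30 (Insig1, adjusted p = 0.418). Srebf2 had 130, 104 and 102 CPM in Cre P278KY, against 91.0, 78.3, 83.3 and 99.1 CPM in Cre WT, and its difference of 0.35 did not pass (adjusted p = 0.367).

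The Cre WT libraries of the 2 pools, which are also of different sex, differed from each other. All 6 desaturases and elongases were higher in the pool 2 than in the pool 1 libraries of Cre WT, with no overlap, where 31.4% of all genes tested were higher in that way and 28.5% lower. Scd1 averaged 181 against 70.6 CPM, Scd2 855 against 421 CPM, Fads1 85.1 against 24.2 CPM and Elovl6 66.3 against 26.5 CPM. Of the 7 mevalonate genes, 4 were lower in pool 2 without overlap (Mvk, Pmvk, Mvd and Fdps) and 0 higher, and of the 10 squalene and sterol genes 3 were lower and 2 higher. The summed oligodendrocyte level was 4350 and 4710 CPM in the pool 2 libraries and 840 and 1340 CPM in those of pool 1, and the summed cholinergic level was 30700 and 30000 CPM in pool 2 and 54100 and 51700 CPM in pool 1. With 2 libraries in each pool these differences were not tested.

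Within pool 1 the same test set 3 Cre P278KY libraries, by the same transcripts from 2 females and 1 male, against 2 Cre WT libraries, both from males, so genotype and sex are not balanced there. In it 6 of the 31 genes passed, 5 of them lower and 1 higher, where 9.1% of all genes passed. Mvk fell by 1.32 (adjusted p = 0.00520), with 15.0, 13.2 and 14.8 CPM in Cre P278KY, against 29.9 and 41.8 CPM in Cre WT. Pmvk fell by 1.26 (adjusted p = 0.00349), Mvd fell by 0.97 (adjusted p = 0.0267), Sqle fell by 0.68 (adjusted p = 0.0448) and Fasn fell by 0.82 (adjusted p = 0.0182). Elovl6 rose by 1.15 (adjusted p = 0.0116), with 61.0, 69.7 and 46.0 CPM in Cre P278KY, against 28 and 25 CPM in Cre WT. So Elovl6 and the 3 mevalonate genes moved apart within this pool. Summed over 17 genes, cholinergic markers stood at 18300, 16100 and 20000 CPM in these Cre P278KY libraries, against 54100 and 51700 CPM in the Cre WT libraries of pool 1. Most of that sum came from the neurofilament genes Nefl, Nefm and Nefh. Over all 7 Cre libraries they averaged 6900, 7640 and 2590 CPM in Cre P278KY, against 16900, 19400 and 4360 CPM in Cre WT. In that fit Chat had -0.17 (adjusted p = 0.811), and the estimate was below 0 for 13 of the 17 genes. Oligodendrocyte markers stood at 789, 928 and 1910 CPM in the Cre P278KY libraries, against 840 and 1340 CPM in the Cre WT libraries of pool 1. The part of either in these differences was not tested. Of the other desaturases and elongases, Fads1 had 0.66 within pool 1 and -0.52 over all 7 libraries, Scd2 had 0.48 and -0.12, and Fads2 had 0.32 and -0.36, so their signs differed between the fits. Scd1 had -0.20 within pool 1 and -1.04 over all 7 libraries, and Elovl5 had 0.60 and 0.43, and none of these 5 passed in either fit. With pool as a term in the 7-library fit, 8 of the 31 passed, where 11.4% of all genes did, 6 lower and 2 higher, Fads1 among the higher at 0.66 (adjusted p = 0.0437). Pool 2 held no Cre P278KY library, so with this term the genotype difference rests on pool 1 again. It is therefore not a comparison separate from the fit within pool 1.

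**Figure D4:**
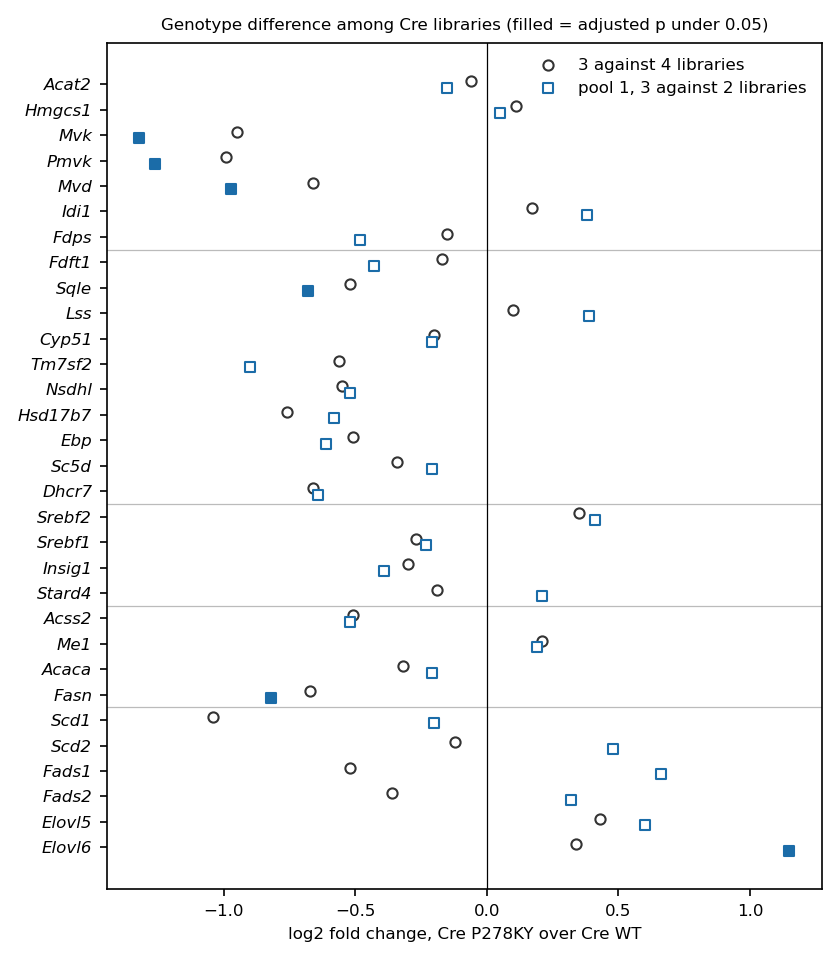
Log2 fold change of each of the 31 genes between Cre P278KY and Cre WT libraries, over all 7 libraries (open circles, 3 against 4) and within pool 1 (squares, 3 against 2), with filled symbols for an adjusted p under 0.05. No circle is filled, and the filled squares are Mvk, Pmvk, Mvd, Sqle and Fasn left of 0 and Elovl6 at 1.15 right of 0.

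Among the wider lists, the genotype comparison over 7 Cre libraries called 4 of 24 other synthesis genes. Over all genes tested, 2.32% were called and 16.2% had an unadjusted p under 0.05. The lists were chosen with earlier results of these data known. Hacd2, a dehydratase of fatty acid elongation, averaged 20.6 ± 0.826 CPM in Cre P278KY and 50.6 ± 8.41 CPM in Cre WT (SD, n = 3 and 4), and it fell by 1.30 (adjusted p = 0.00727). Cyb5r3, the reductase that feeds electrons to sterol and fatty acid desaturation, averaged 242 ± 21.2 CPM in Cre P278KY and 482 ± 83.1 CPM in Cre WT, and it fell by 0.99 (adjusted p = 0.0271). Acacb, the carboxylase that curbs fatty acid oxidation, fell by 2.41 (adjusted p = 0.0403) from a low level, with 0.479 ± 0.142 CPM in Cre P278KY and 2.57 ± 0.868 CPM in Cre WT. Fads3 rose by 1.34 (adjusted p = 0.0463). Of 19 genes of sterol sensing and uptake, the lipoprotein receptor Vldlr rose by 1.59 (adjusted p = 0.0396), with 52.8 ± 8.55 CPM in Cre P278KY and 17.5 ± 8.56 CPM in Cre WT, and Npc1l1 fell, at 0.0298 ± 0.0516 CPM in Cre P278KY and 1.24 ± 0.725 CPM in Cre WT (adjusted p = 0.0464), too low for a fold. Of 29 glycerolipid genes, Pcyt1b, an enzyme of phosphatidylcholine synthesis, fell by 0.94 (adjusted p = 0.0271), and 0 of 14 sterol export genes and 0 of 26 fatty acid oxidation genes passed, with 4 and 9 at an unadjusted p under 0.05. Of the marker lists, 0 of 18 oligodendrocyte genes passed, with 11 at an unadjusted p under 0.05 and all 18 estimates below 0. Also 0 of 14 astrocyte, 0 of 11 microglial and 0 of 4 adipocyte genes passed, with 4, 0 and 1 at an unadjusted p under 0.05. Of 9 Schwann cell genes 2 were lower, Pmp22 at -0.85 (adjusted p = 0.0464) and Prx at -1.71 (adjusted p = 0.0338). Of 17 cholinergic genes 3 were lower, Chodl at -2.53 (adjusted p = 0.0032), Nefl at -1.29 (adjusted p = 0.0103) and Vipr2 at -1.34 (adjusted p = 0.0403). Of 32 genes of the integrated stress response, a list that also holds Vldlr, 23 were higher, with a median log2 fold change of 2.09.

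Between NoCre P278KY and NoCre WT libraries, which hold background RNA of the cord, 0 of the 31 genes passed and 0 had an unadjusted p under 0.05, where 0.0233% and 6.77% of all genes did. DESeq2 also called 0 of the 31. The median log2 fold change was -0.03 for the 31 genes and -0.01 for all genes. Scd1, as an example, averaged 289 ± 87.3 CPM in NoCre P278KY and 246 ± 40.6 CPM in NoCre WT, and Hmgcs1 averaged 176 ± 16.4 CPM in NoCre P278KY and 200 ± 47.0 CPM in NoCre WT (SD, n = 6 and 5). Chat was lower in NoCre P278KY at a log2 fold change of -1.45 (adjusted p = 0.0340), with 2.88 CPM, against 7.90 CPM in NoCre WT. Of the 17 cholinergic genes, a list chosen with earlier results of these data known, 3 were lower, Chat among them. Of all 17133 genes tested, 4 passed. The estimate was below 0 for 16 of the 17, with a median of -0.79.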

How the data were processed

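The labels place 18 spinal cord immunoprecipitates in 4 groups by Rpl22, Chat-Cre and Gars genotype. Replicate numbers only name mice, and the labels do not pair mice across groups. The authors deposited 1 table per library with expected counts, TPM and FPKM, per the file headers those of RSEM. Per the submitters' processing notes the tools included Bowtie2 2.2.0 and RSEM 1.2.12; the build and annotation were not given in the sources used here. FPKM was not used. The deposited expected counts were rounded to whole numbers. The members' counts were whole in every library for 18 of the 31 genes, fractional in every library for 5 (Acat2, Fdft1, Scd1, Scd2 and Elovl6) and fractional in some for 8.

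Counts were fitted in edgeR 4.0.16 (R 4.3.3) with filterByExpr, TMM scaling and robust dispersions, and its quasi-likelihood test was run two-sided, with Benjamini-Hochberg adjustment over all genes tested and a threshold of 0.05. Unless another tool is named, each adjusted p comes from this test. The genotype difference among Cre libraries used those 7 libraries, and the other comparisons used a fit of all 18 with 4 group means, so CPM values of a library differ slightly between the fits. The p-values measure the spread between these mice. Counts come from PCR-amplified reads, which are not independent molecules. TPM, not tested, was used for levels between genes. Pools were read from repeated index sequences and sample numbers in the library descriptions. The procedure was tested on simulated data. The 31 genes, the wider lists and the marker lists were chosen with earlier results of these data known. All members are named, with up to 4 genes of each wider list by smallest adjusted p, and Chat and Gars; genes that this rule also takes but that are left out of the text are not reported here. Promoter sequences are from RefSeq (GRCm38.p6). Alternatives were RLE factors, library size alone, no filter, DESeq2 1.42.0, a mouse-number block, a pool term, single pools and each library left out.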

Additional observations from a re-analysis of the deposited data

Results flagged for a closer look

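Of 93 sets of values (31 genes in the groups of 4 to 6 libraries), 10 held a library whose gap to its nearest neighbour was large for the range of its group (Dixon's criterion at 95%), and chance gives about 1 in 20. NoCre P278KY replicate 6 accounted for 6 of the 10. It was the highest of its group for Elovl6 (182 CPM), Scd1 (462 CPM), Lss (56.5 CPM) and Stard4 (48.6 CPM), and the lowest for Fdps (3.84 CPM) and Idi1 (22.3 CPM). In NoCre WT, Ebp was high in replicate 4 (12 CPM), Me1 was high in replicate 2 (46.4 CPM) and Sc5d was low in replicate 5 (16 CPM). In Cre WT, Cyp51 was low in replicate 4 (102 CPM).

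The effect of genotype differed between Cre and NoCre libraries for 2 of 25 other synthesis genes, by the interaction term of edgeR. Hacd2 had -1.70 on the log2 scale (adjusted p = 0.0267), lower in Cre P278KY than in Cre WT at -1.30, while NoCre P278KY over NoCre WT stood at 0.38 (adjusted p = 0.745). Acacb had -2.68 (adjusted p = 0.0426), with -2.41 between the Cre groups and 0.25 (adjusted p = 0.886) between the NoCre groups. None of the 31 genes passed this test in edgeR (0), with 3 at an unadjusted p under 0.05 and 0 called by DESeq2.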

How the results depend on the processing

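In the comparison of Cre P278KY with Cre WT the count of members called, 0 as reported, was 1 without the low-count filter, 5 with DESeq2, 8 with pool as a covariate (2 higher, 6 lower), 6 within pool 1 (1 higher, 5 lower) and 0 to 1 with a library left out (Hsd17b7 without Cre WT replicate 2, and Pmvk without Cre WT replicate 3 or 4). Scd1, at -1.04 as reported, ran from -1.56 with the block (adjusted p = 0.00079) to -0.20 with pool as a covariate. Fads1 reversed with pool as a covariate, to 0.66 (adjusted p = 0.0437), from -0.52. With that covariate the genotype difference rests on pool 1, as it does in the fit within pool 1. With the mouse number as a replicate block the count was 4 (Hsd17b7, Dhcr7, Scd1 and Fads1, all lower). The meaning of that number is not given. Among the Cre libraries, the genotypes share a number only between Cre P278KY replicates 1 and 3 and Cre WT replicates 3 and 4. The former are in pool 1 and the latter in pool 2. So with the block the genotype difference, that of Scd1 included, rests on these libraries and cannot be told apart from pool. All genes called were 342 as reported, 148 with library size alone, 1343 within pool 1, 972 with DESeq2, 1664 with the block and 1676 with pool as a covariate. The causes were not tested.

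In P278KY mice library size alone, under which 45.9% of all genes passed, gave 11 members called instead of 22, 6 higher mevalonate and sterol genes instead of 11, and 3 lower desaturases and elongases instead of 5. In WT mice it gave 0 of the 5 lower desaturases and elongases. Library sizes without mitochondrial ribosomal RNA, chosen after the data were seen, gave 10 members and 3 higher mevalonate and sterol genes in P278KY mice, and 14 members and 7 such genes, instead of 25 and 13, in WT mice. Within pool 2 in WT mice the counts were 9 members, 7 higher mevalonate and sterol genes and 0 lower desaturases and elongases, with fewer libraries. Leaving out a library gave 16 to 22 members, 7 to 11 mevalonate and sterol genes and 4 to 5 desaturases and elongases in P278KY mice, and 21 to 25, 12 to 14 and 4 to 5 in WT mice. The NoCre and interaction counts were 0 under every alternative run. Leaving out the 3 NoCre libraries with the lowest correlations, also chosen after the data were seen, moved no count by over 1.5 times. The calls of Acat2 and Fdps in both genotypes held under all 18 alternatives in P278KY mice and 19 in WT mice. Depth and 3 to 6 libraries a group limit the precision.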
